A study of Mus musculus with 312 samples.

Results

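The genes followed here in single mammary basal cells of adult and pregnant mice were the secreted glycoprotein reelin (Reln), its receptors Vldlr and Lrp8, the adaptor Dab1, the neural cell adhesion molecule Ncam1, and the testican proteoglycans Spock1, Spock2 and Spock3. They were 8 of the 25136 genes kept for analysis and were found by the symbol of their Entrez GeneID. Reln, Ncam1 and Spock3 had been chosen by their higher mean level in pregnancy than in adult cells in these same data, and the other 5 genes were listed as their relatives. The differences between pregnancy and adult cells are therefore given as descriptions, without a test.

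The series held 312 cells of FVB/NJ mice, all labelled basal, of which 237 were labelled adult and 75 pregnancy, with no transgene, allele or agent named in the labels. Each cell was captured on a Fluidigm C1 microfluidic chip and sequenced as full-length poly(A) cDNA without molecular identifiers. Among the adult cells, 112 carried the mark (2) in their titles and 125 did not, and the labels leave the mark unexplained. In all, 210 cells passed 50000 read pairs and 1000 detected genes without mitochondrial and ribosomal protein genes, namely 81 marked adult, 58 unmarked adult and 71 pregnancy cells. The labels name no animal and give no day of pregnancy. Each group was thus counted as 1 sample, intervals below cover counting error only, and the stage cannot be told apart from the capture run. The basal sort of the study took lineage-negative CD29-high CD24-positive cells, but the study describes its captured pregnancy cells as total epithelium. It retained more pregnancy cells than this series holds, so whether the cells used here are among them is not known. The basal identity of the pregnancy cells thus rests on the labels and on the markers given here.

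Reelin is a large extracellular protein best known from the developing cortex, where it is secreted by Cajal-Retzius cells and positions migrating neurons. It binds the lipoprotein receptors encoded by Vldlr and Lrp8, and both receptors pass the signal on by tyrosine phosphorylation of the adaptor encoded by Dab1 through Src family kinases. NCAM binds itself and its partners on neighbouring cells and can carry polysialic acid, and testicans are secreted proteoglycans of the SPARC family. Outside the brain, reelin is known from lymphatic endothelium and NCAM from Schwann cells, so that markers of these cells were examined as well.

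Most retained cells held the basal markers. At least 6 of 11 core basal genes reached 100 CPM (reads of a gene per 1000000 reads assigned to kept genes in that cell) in 76 of 81 marked adult, 51 of 58 unmarked adult and 70 of 71 pregnancy cells. Members of this list themselves differed between stages, with Krt17 at least 2-fold lower (579 CPM in pregnancy against 4590 and 3485 CPM in marked and unmarked adult cells) and Mylk and Trp63 at least 2-fold higher in pregnancy than in each adult set. Retained cells had between 51464 and 406155 assigned reads, with medians of 174956 in marked adult, 101324 in unmarked adult and 230784 in pregnancy cells. The median mitochondrial share was 9.65%, 15.6% and 18.4%, and 2, 6 and 12 cells carried at least 3 of 14 proliferation genes at 100 CPM. The part of these differences in the results was not tested. The adult title sets also differed from each other. Of 8412 genes whose mean over the 3 groups reached 10 CPM, 16% were at least 2-fold higher and 17% at least 2-fold lower in unmarked than in marked adult cells, so that pregnancy was set against each adult set as well as against both together.

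Reln (Entrez 19699, GRCm38 chr5:21884454-22344705), the ligand, was the most abundant member in pregnancy cells. Its lowest, median and highest levels were 6.38, 512 and 3762 CPM in pregnancy, against 0, 0 and 514 CPM in marked adult and 0, 7.13 and 673 CPM in unmarked adult cells. The ranges overlapped, yet 60 of 71 pregnancy cells (84.5%, 95% exact binomial interval 74.0 to 92.0) reached 100 CPM and only 13 of 139 adult cells did (9.35%, 5.07 to 15.5). Mean levels were 759 CPM in pregnancy, 31.4 CPM in marked and 49.0 CPM in unmarked adult cells. On the scale of log2 of the mean CPM plus 10, which understates the change of low genes, Reln was higher in pregnancy by 4.22 against marked and by 3.70 against unmarked adult cells. The signal was spread over the pregnancy cells, with the highest of them, cell 13, holding 6.98% of the summed CPM. In reads, 11895 fell on Reln among 16393602 assigned reads of the pregnancy cells, or 726 CPM over the summed reads (95% exact Poisson interval 713 to 739), against 42.6 CPM (39.9 to 45.4) in adult cells.

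**Figure D1:**
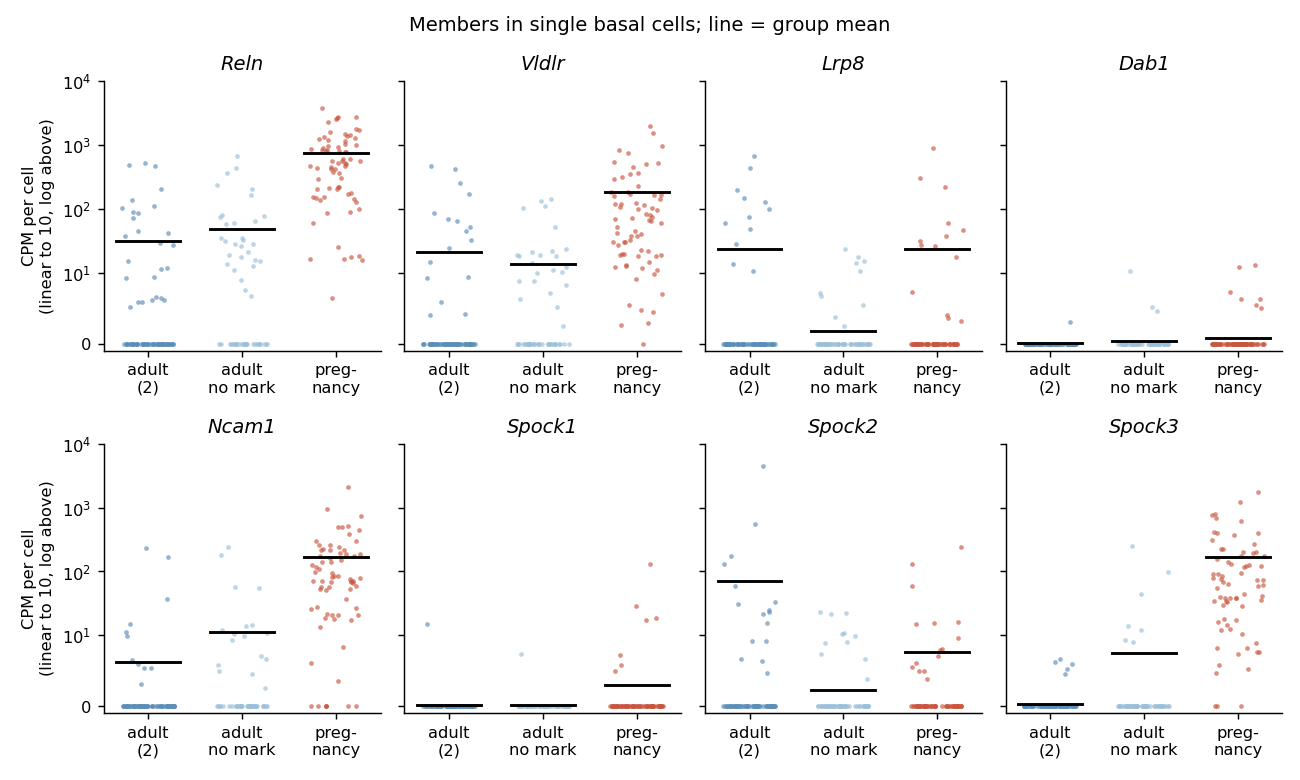
Level of each of the 8 genes per cell in CPM, on an axis that is linear up to 10 and logarithmic above, for 81 marked adult (2), 58 unmarked adult and 71 pregnancy cells; each point is a cell and each line the mean of a group. Reln, Vldlr, Ncam1 and Spock3 lie higher in pregnancy with overlapping ranges, Dab1 stays at or under 13.0 CPM in every cell, Spock1 is at 0 in most cells with a highest value of 133 CPM, and 1 marked adult cell reaches 4544 CPM of Spock2.

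The stretch before the annotated start of Reln is shown because the ligand leads the comparison. RefSeq (GRCm38.p6) promoter windows were given for 7 of the 8 genes, and Ncam1 was not matched. The 250 bases upstream of the Reln start, chr5:22344706-22344955 on the minus strand, read as follows with matches to the motifs in capitals:
Reln: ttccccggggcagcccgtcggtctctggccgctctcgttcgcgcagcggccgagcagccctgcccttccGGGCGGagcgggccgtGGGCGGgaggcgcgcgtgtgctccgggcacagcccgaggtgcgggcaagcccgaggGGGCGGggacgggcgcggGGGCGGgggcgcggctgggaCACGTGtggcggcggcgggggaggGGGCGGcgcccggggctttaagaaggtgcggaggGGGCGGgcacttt
The window had a GC content of 80.0% and 37 CG dinucleotides, against a median of 6 over 32851 promoter windows of the same length. It held 6 matches to GGGCGG (the GC box bound by Sp factors; on either strand in 32.7% of all windows) and 1 to CACGTG (an E-box; 6.02%), and no match to TTCNNNGAA (the STAT site; 7.02%), TGTTCT (a steroid hormone receptor half-site; 16.1%) or GGAATG (a TEAD site; 12.6%). Every motif was searched on both strands, no capital stretch belongs to more than 1 motif, and a match is a run of letters, not a bound site.

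Vldlr (22359, chr19:27216480-27254231), the receptor for very low density lipoprotein and reelin, was higher in pregnancy too. Its lowest, median and highest levels were 0, 65.0 and 2006 CPM in pregnancy, 0, 0 and 463 CPM in marked adult and 0, 0 and 144 CPM in unmarked adult cells. At least 100 CPM was reached by 27 of 71 pregnancy cells (38.0%, 26.8 to 50.3) and 8 of 139 adult cells (5.76%, 2.52 to 11.0). The mean of 182 CPM in pregnancy exceeded the 21.2 CPM of marked and 13.6 CPM of unmarked adult cells by 2.62 and 3.02 on the log2 scale. A few cells weighed on this mean, since cells 11 and 2 reached 2006 and 1527 CPM, and without cell 11 it was 156 CPM. Vldlr has more than 1 annotated start, and the 250 bases upstream of the first, chr19:27216234-27216483 on the plus strand, are shown for comparison with those of its ligand:
Vldlr: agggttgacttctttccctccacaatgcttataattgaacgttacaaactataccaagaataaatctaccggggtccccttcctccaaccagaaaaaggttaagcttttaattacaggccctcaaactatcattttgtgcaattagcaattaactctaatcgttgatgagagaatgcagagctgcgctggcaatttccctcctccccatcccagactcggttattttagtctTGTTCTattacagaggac
This window had a GC content of 41.6% and 5 CG dinucleotides, with 1 match to TGTTCT and none to the other 4 motifs. The upstream window of the second start, by contrast, had 66.4% GC and 18 CG dinucleotides.

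Lrp8 (16975, chr4:107802200-107876840), the apolipoprotein E receptor 2 and the second reelin receptor, did not follow. Its median was 0 in every group, and its highest cells reached 893 CPM in pregnancy, 673 CPM in marked adult and 23.2 CPM in unmarked adult cells. The mean of 23.7 CPM in pregnancy was level with the 23.5 CPM of marked adult cells (a log2 difference of 0.01) and above the 1.83 CPM of unmarked adult cells (1.51). A single pregnancy cell, 35, held 53.1% of the pregnancy signal, and without it the mean was 11.3 CPM and the log2 difference from all adult cells went from 0.46 to -0.20. Marked adult cell 33 weighed on the other side with 35.3% of the marked signal, since the marked mean was 15.4 CPM without it, and with the highest pregnancy and the highest adult cell both left out the log2 difference from all adult cells was 0.11. At 100 CPM, Lrp8 was found in 3 of 71 pregnancy, 5 of 81 marked adult and 0 of 58 unmarked adult cells (exact interval 0 to 6.16%; the 3 counts that a count of 0 allows are 5.17%).

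Dab1 (13131, chr4:103619500-104744844), the adaptor of both receptors, was nearly undetected. It received 11 reads in 7 of 71 pregnancy cells, 1 read in 1 of 81 marked adult cells and 3 reads in 3 of 58 unmarked adult cells. The highest retained cell had 13.0 CPM, and no retained cell of any group reached 100 CPM. Among the cells left out for few reads, pregnancy cell 3 did exceed 100 CPM, with 8 Dab1 reads among 19427 assigned reads. Over the summed reads, Dab1 came to 0.671 CPM (exact Poisson interval 0.335 to 1.20) in pregnancy and 0.181 CPM (0.0494 to 0.464) in adult cells, so that its level in pregnancy was below that of Vldlr by a wide margin also per kilobase of exon (0.140 against 21.9 mean CPM per kilobase).

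Ncam1 (17967, chr9:49502129-49799393) had its lowest, median and highest levels at 0, 75.0 and 2114 CPM in pregnancy, 0, 0 and 233 CPM in marked adult and 0, 0 and 246 CPM in unmarked adult cells. It reached 100 CPM in 29 of 71 pregnancy cells (40.8%, 29.3 to 53.2) and 4 of 139 adult cells (2.88%, 0.790 to 7.20). Mean levels were 168, 6.20 and 11.2 CPM in the same order, a log2 difference of 3.46 against marked and 3.07 against unmarked adult cells. The adult means rested on few cells, being 3.36 CPM in marked cells without cell 74 and 7.13 CPM in unmarked cells without cell 126, which had 1 core basal gene and 3 Schwann cell markers at 100 CPM. Pregnancy cell 30, the highest, held 17.7% of the pregnancy signal and was among the lowest for Reln, with 16.5 CPM.

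The testicans behaved differently from one another. Spock3 (72902, chr8:62951000-63357101) was close to absent in adult cells, with 5 reads in marked and 61 reads in unmarked cells, against 2936 reads in pregnancy. Its lowest, median and highest levels were 0, 64.2 and 1755 CPM in pregnancy, 0, 0 and 6.63 CPM in marked adult and 0, 0 and 249 CPM in unmarked adult cells. It reached 100 CPM in 26 of 71 pregnancy cells (36.6%, 25.5 to 48.9) and 1 of 139 adult cells, unmarked cell 162, which held 57.1% of the unmarked signal. The mean of 169 CPM in pregnancy was above the 0.355 CPM of marked and 7.52 CPM of unmarked adult cells by 4.11 and 3.35 on the log2 scale.

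Spock1 and Spock2 did not share this pattern. Spock1 (20745, chr13:57421195-57908332) received 67 reads in 7 pregnancy cells and 2 reads in adult cells, and 61.6% of its pregnancy signal came from cell 20. Spock2 (94214, chr10:60106257-60135198) had a lower mean in pregnancy (7.64 CPM) than in marked adult cells (69.7 CPM) and a higher one than in unmarked adult cells (2.31 CPM). Its marked adult mean rested on cell 41 at 4544 CPM, which held 80.4% of the signal, and without this cell it was 13.8 CPM. Its median was 0 in all 3 groups.

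Compared per kilobase of exon, the mean levels in pregnancy ran from Reln at 64.8 CPM per kilobase through Spock3 at 51.4, Vldlr at 21.9, Ncam1 at 17.8, Lrp8 at 3.08, Spock2 at 1.95 and Spock1 at 0.456 to Dab1 at 0.140. Vldlr and Ncam1 were neighbours with overlapping cell ranges, as were Reln and Spock3. The exon lengths were those given with the counts, 11702 bases for Reln, whereas GENCODE M21 gives Reln 23738 exon bases. The place of Reln before Spock3 depends on the lengths used, and the order with other lengths was not tested. In marked adult cells the order was led by Spock2 at 17.8 mean CPM per kilobase (3.53 without cell 41), followed by Lrp8 at 3.06, Reln at 2.68 and Vldlr at 2.56. In unmarked adult cells Reln led at 4.19, followed by Spock3 at 2.29, Vldlr at 1.64 and Ncam1 at 1.19. Without cell 162, Spock3 stood at 1.00 there, and its place in this order rests on that cell.

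Because depth differed between groups, each cell was also thinned at random to 50000 assigned reads and a gene was called detected at 1 read or more. Reln was then detected in 69 of 71 pregnancy cells (97.2%, exact interval 90.2 to 99.7), 20 of 81 marked (24.7%, 15.8 to 35.5) and 23 of 58 unmarked adult cells (39.7%, 27.0 to 53.4). Ncam1 and Spock3 were each detected in 57 pregnancy cells (80.3%, 69.1 to 88.8) and in 19 and 6 of 139 adult cells. Vldlr was detected in 48 pregnancy cells (67.6%, 55.5 to 78.2) and 28 adult cells (20.1%, 13.8 to 27.8). For these 4 genes the pregnancy interval lay above that of both adult sets. Detection of Lrp8 was 12.7% in pregnancy and 9.35% in adult cells, of Spock2 8.45% and 8.63%, of Spock1 7.04% and 1.44%, and of Dab1 2.82% and 1.44%, with overlapping intervals. Without thinning, Reln had at least 1 read in all 71 pregnancy cells and 57 of 139 adult cells.

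**Figure D2:**
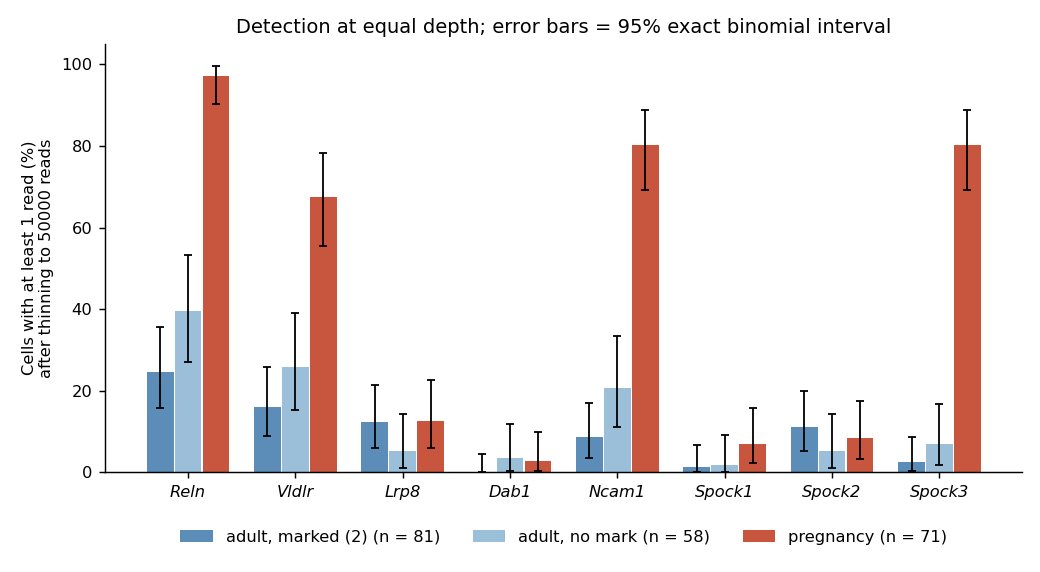
Percentage of cells with at least 1 read of each gene after thinning every cell to 50000 reads; bars are group shares in 81 marked adult, 58 unmarked adult and 71 pregnancy cells, and error bars are exact binomial 95% intervals. Pregnancy stands apart for Reln at 97.2%, Vldlr at 67.6%, and Ncam1 and Spock3 at 80.3%, whereas the intervals of the other 4 genes overlap.

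Across the list, 6 of the 8 genes passed the mean of 10 CPM over groups, and Dab1 and Spock1 did not. Reln, Vldlr, Ncam1 and Spock3 were at least 2-fold higher in pregnancy than in each adult set, as were 8.75% of the 8412 genes passing the same filter, and 5.18% of those genes were at least 2-fold lower. None of the 8 genes was lower by that measure. For Reln, Ncam1 and Spock3 this comparison restates how they were chosen. By the log2 difference from all adult cells, Reln ranked 4, Spock3 6, Ncam1 9, Vldlr 36, Lrp8 2437 and Spock2 7912 among the 8412 genes. The median log2 difference was 1.62 over all 8 genes and -0.03 over the 8412, a contrast that the choice of Reln, Ncam1 and Spock3 fixes in part. Between the adult sets, Lrp8 and Spock2 were lower in unmarked cells by more than 2-fold (-1.50 and -2.70), as were 17% of the 8412 genes. The Spock2 difference rested on marked cell 41, without which the marked mean was 13.8 CPM. With 10 CPM added, that mean was less than 2-fold above the 2.31 CPM of unmarked cells. Reln, Vldlr, Ncam1 and Spock3 differed by less than 2-fold (0.51, -0.40, 0.39 and 0.76).

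The partner genes of the pathways were compared in the same way. Of 35 reelin pathway genes (kinases, adaptors, integrin subunits, proteases and other ligands of the receptors), 31 passed the filter, of which 2 were at least 2-fold higher and 1 at least 2-fold lower in pregnancy than in each adult set, with a median log2 difference of 0.06. These counts are near the 8.75% higher and 5.18% lower among all genes. The higher genes were Thbs1, encoding thrombospondin 1, another extracellular ligand of both reelin receptors, and Rapgef1, a guanine nucleotide exchange factor downstream of Crk. Thbs1 had medians of 560, 525 and 4220 CPM in marked adult, unmarked adult and pregnancy cells, and its mean was higher in pregnancy by 2.28 and 1.80 on the log2 scale. Rapgef1 had a mean of 42.5 CPM in pregnancy against 15.4 and 5.35 CPM in marked and unmarked adult cells, with a median of 0 in each. Its log2 difference from marked cells, 1.05, was just past the 2-fold limit. Without pregnancy cell 41, at 926 CPM, its pregnancy mean was 29.9 CPM. Without adult cell 90, its mean over all adult cells went from 11.2 to 8.57 CPM. The lower gene was Adamts3, encoding a protease that cleaves reelin, with a mean of 23.3 CPM in pregnancy against 71.3 and 204 CPM in the adult sets. Its signal came from few cells, since 12 adult and 4 pregnancy cells reached 100 CPM. At 1 read after thinning, Adamts3 was detected in 19.7% of pregnancy, 13.6% of marked and 15.5% of unmarked adult cells.

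The Src family kinases Fyn and Src, which phosphorylate Dab1, had log2 differences of 0.44 and 0.06 between pregnancy and all adult cells. The downstream adaptor Crk differed by 0.06 and Gsk3b by 0.27, at pregnancy means of 190 and 559 CPM. Dab2, a relative of Dab1 with the same type of binding domain, had a mean of 12.9 CPM in pregnancy and a log2 difference of -0.70. Itgb1, an integrin subunit that reelin can engage, was abundant in every group, with a mean of 999 CPM in pregnancy and a log2 difference of 0.32.

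Of 12 NCAM partners, 5 passed the filter and none was 2-fold higher or lower in pregnancy than in both adult sets, a count too small to set apart from the 8.75% and 5.18% of all genes. The polysialyltransferases St8sia2 and St8sia4, which modify NCAM, had mean levels of 0.700 and 0.0610 CPM in pregnancy. The receptor Fgfr1, with which NCAM interacts, had a mean of 233 CPM and a log2 difference of 0.30. Of 10 SPARC family genes and testican targets, 7 passed the filter and 1 of them, Sparcl1, was lower, again too few to set against the share of all genes, with a mean of 14.9 CPM in pregnancy against 389 and 207 CPM in the adult sets. One marked adult cell, 104, at 25416 CPM weighed on Sparcl1, and without it the mean of all adult cells went from 313 to 131 CPM. At 100 CPM, Sparcl1 was found in 2 pregnancy and 11 adult cells. At 1 read after thinning, however, it was detected in 31.0% of pregnancy, 11.1% of marked and 22.4% of unmarked adult cells. Sparc itself had a mean of 3058 CPM in pregnancy and a log2 difference of 0.60, and the metalloprotease gene Mmp2 differed by -0.05.

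**Figure D3:**
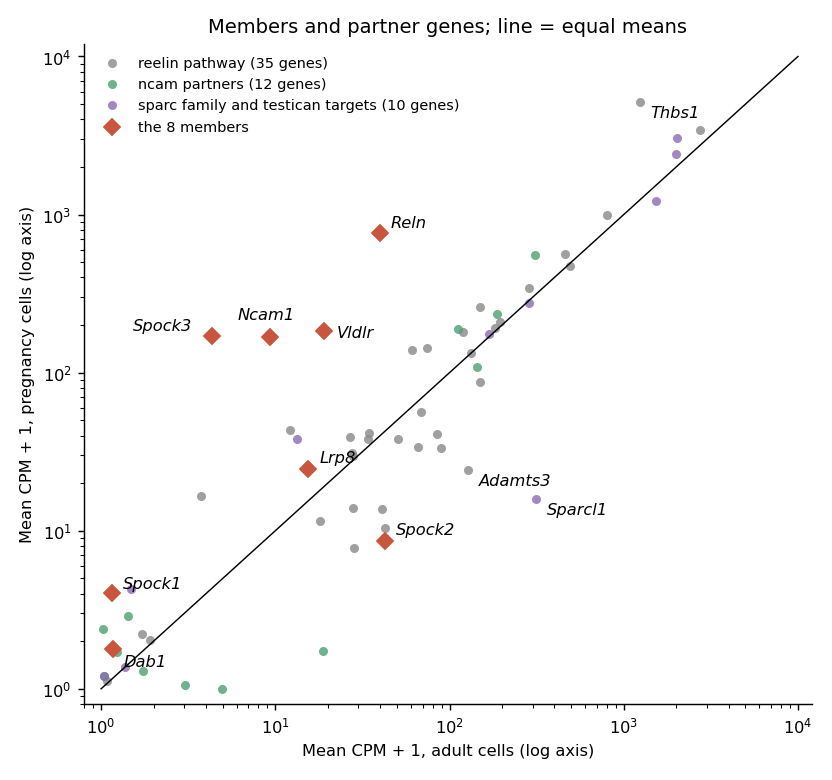
Mean CPM plus 1 in 71 pregnancy cells against 139 adult cells, on log axes, for the 8 genes (diamonds) and the 57 partner genes of 3 lists (circles); the line marks equal means. Reln, Spock3, Ncam1 and Vldlr lie above the line, most partner genes lie near it, and Thbs1, Adamts3 and Sparcl1 are labelled.

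Whether the genes varied together was examined over the cells of each group, never across groups. Over the 71 pregnancy cells, thinned Reln reads had a Spearman rho of 0.26 with Vldlr, -0.09 with Ncam1 and 0.02 with Spock3, and rho was -0.01 between Ncam1 and Spock3. Against this, the middle 90% of 2196 other genes detected in at least 50% of those cells lay between -0.18 and 0.23, so that 58 genes had a higher rho with Reln than Vldlr had. Cells share capture run and amplification, and the values are a description. Reln had rho of -0.11 with the number of assigned reads and 0.08 with the mitochondrial share, whereas Vldlr had -0.36 with assigned reads and 0.34 with the number of genes detected. Lrp8 (0.22), Dab1 (0.09), Spock1 (-0.09) and Spock2 (-0.19) were read in at most 9 pregnancy cells after thinning, too few for rho to be informative. In marked and unmarked adult cells, Reln had rho of 0.02 and 0.19 with Vldlr, 0.04 and 0.02 with Ncam1, and 0.21 and 0.22 with Spock3, the last with Spock3 read in 2 and 4 cells.

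**Figure D4:**
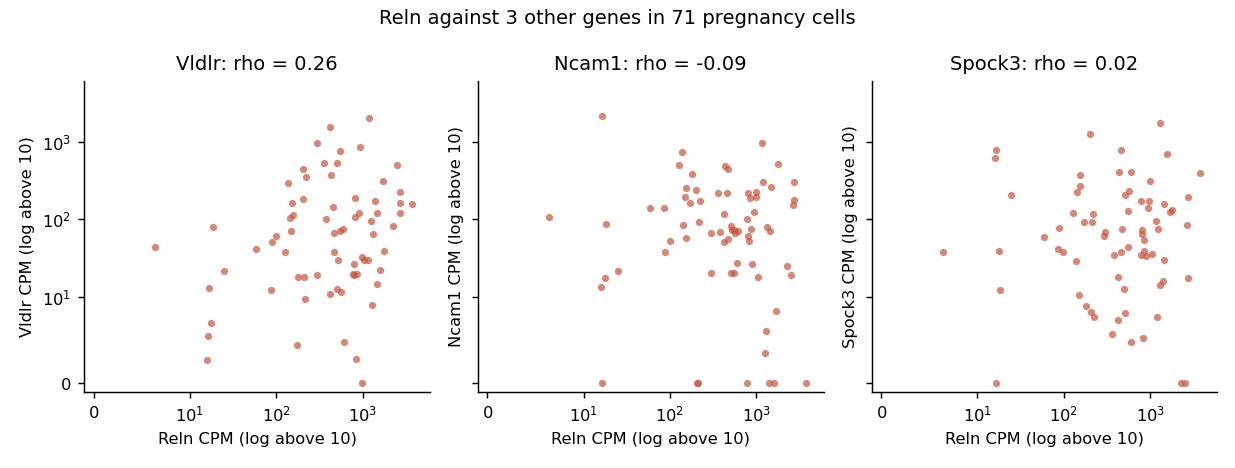
Reln CPM against Vldlr, Ncam1 and Spock3 CPM in the 71 pregnancy cells, on axes that are linear up to 10 and logarithmic above; each point is a cell, and rho is the Spearman value over thinned reads. The clouds show a rho of 0.26 for Vldlr, -0.09 for Ncam1 and 0.02 for Spock3.

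Joint detection in the same cell was counted as well. After thinning, 48 of 71 pregnancy cells carried both Reln and Vldlr, and 9 carried Reln and Lrp8. The ligand was thus found with at least 1 receptor in 51 cells (71.8%, 59.9 to 81.9), against 13 of 139 adult cells (9.35%, 5.07 to 15.5). A receptor, with or without Reln, was found in the same 51 pregnancy cells and in 39 adult cells (28.1%, 20.8 to 36.3). Reln, a receptor and Dab1 were found together after thinning in 2 pregnancy cells, both with at least 3 markers of another cell type at 100 CPM. None of the 61 pregnancy cells with basal markers and under 3 markers of every other cell type carried them together after thinning. Without thinning, however, cells 23, 37, 42 and 46 among these 61 held 1, 1, 1 and 3 Dab1 reads beside reads of Reln and Vldlr. Cells 42 and 46 each had 2 Schwann cell markers and 1 neuronal marker at 100 CPM. Reln, Ncam1 and Spock3 were found together in 42 pregnancy cells (59.2%, 46.8 to 70.7) and in 1 adult cell. These joint counts follow largely from the detection of each gene alone, and Reln, Ncam1 and Spock3 were chosen by their level. Joint detection beyond that was not tested. At 100 CPM, Reln, Vldlr, Ncam1 and Spock3 were all present in 7 pregnancy cells, 3 of them in 15, 2 in 25, 1 in 19 and none in 5, whereas 118 of 139 adult cells had none and no adult cell had more than 2. For each of the 8 genes, the highest pregnancy cell was a different one.

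The 5 genes whose thinned reads ran most alike with Reln over the 71 pregnancy cells were Utrn (rho 0.41), encoding the dystrophin relative utrophin, Igf1r (0.41), the insulin-like growth factor receptor, Gclc (0.39), an enzyme of glutathione synthesis, the transcription factor gene Tcf4 (0.39), and Pcnp (0.38). None of them was at least 2-fold higher in pregnancy than in both adult sets, and Pcnp was lower, with log2 differences of -1.29 and -1.66.

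Reln was seen across the other classes of pregnancy cells. In the 12 cells with at least 3 proliferation genes its median was 554 CPM, and in the other 59 it was 502 CPM. It reached 100 CPM in 32 of the 38 cells with the basal keratin Krt17 at 100 CPM and in 28 of the other 33. For the casein gene Csn3, Reln did so in 21 of the 24 cells with Csn3 at 100 CPM and in 39 of the other 47.

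Markers of other cell types were examined beside these results. No pregnancy cell carried 3 of 8 lymphatic endothelial or Schwann cell markers at 100 CPM. Prox1, Flt4, Ccl21a and Mmrn1 of the lymphatic list and Cdh19, Foxd3 and Gfra3 of the Schwann list had no read in pregnancy cells. Prox1, Ccl21a, Mmrn1 and Foxd3 had none in adult cells either. Mean levels of Mbp were 45.3 CPM in pregnancy against 2.52 and 23.0 CPM in marked and unmarked adult cells. In the same order, 9, 0 and 4 cells reached 100 CPM of Mbp, 10, 16 and 4 of Sox10, and 4, 1 and 0 of Lyve1. Of these lists, 4 Schwann markers and 1 lymphatic marker passed the filter, and none was called higher or lower. One unmarked adult cell, 126, met the Schwann list, and it was the highest adult cell for Ncam1 at 246 CPM. The summed Schwann list had a median of 19.0 CPM in pregnancy, 3.20 CPM in marked and 14.9 CPM in unmarked adult cells. Its ranges in the same order were 0 to 1061, 0 to 4296 and 0 to 1894 CPM. One pregnancy cell carried 3 of 8 neuronal markers, 3 carried 3 of 8 fibroblast markers and 6 carried 3 of 7 pan-luminal markers. The summed fibroblast list was higher in pregnancy, with a median of 561 CPM (55.2 to 5780) against 0 (0 to 3262) and 27.7 CPM (0 to 38182). Of its 7 genes past the filter, 1, Pdgfra, was at least 2-fold higher than in each adult set. It reached 100 CPM in 3 pregnancy, 0 marked adult and 1 unmarked adult cells. Of 4 pericyte markers past the filter, Cspg4 was higher (39.2 CPM in pregnancy against 0 and 2.52 CPM, with 6, 0 and 1 cells at 100 CPM) and Mcam lower (32.8 against 129 and 128 CPM), and none of 3 immune markers past the filter was called. These counts of called markers are too small to set apart from the 8.75% higher and 5.18% lower among all genes. No pregnancy cell met the pericyte or the immune list, and 2 and 1 marked adult cells did. The decorin gene Dcn reached 100 CPM in 66 pregnancy, 9 marked adult and 16 unmarked adult cells. Its means in the same order were 1113, 107 and 677 CPM. Col1a1, Col1a2, Col3a1, Lum and Dpt reached 100 CPM in at most 3 pregnancy cells. With only the 61 pregnancy and 101 adult cells that had the basal markers and fewer than 3 genes of every other list, the log2 differences were 3.94 for Reln, 2.56 for Vldlr, 3.37 for Ncam1 and 3.68 for Spock3. Pregnancy cell 71, with 5 core basal and 6 pan-luminal genes at 100 CPM, had 16.4 CPM of Reln and no read of Ncam1 or Spock3.

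Reads could be shared with overlapping genes, since the sources used here do not state that counting used strand. In GENCODE M21, antisense transcripts overlapped 246 of 23738 exon bases of Reln (Gm10475) and 417 of 8664 exon bases of Ncam1 (Gm11149), and no exon of the other 6 genes overlapped another gene.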

How the data were processed

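Single basal cells were captured on Fluidigm C1 chips and sequenced on a NextSeq instrument. The authors aligned read pairs to mm10 with Subread (version 1.5.0 in the submitters' processing notes) and counted them over the RefSeq exons built into Rsubread with featureCounts, and deposited raw counts per Entrez gene for each cell, which were the only values used. Strandedness was not given in the sources used here. Of 27179 gene identifiers, 25275 had a symbol, and the 1904 others, with 1.66% of reads, were left out with 15 mitochondrial and 124 ribosomal protein genes. Cells with under 50000 read pairs or under 1000 genes were left out (102 of 312), and no pair of cells held identical counts.

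CPM was computed over the kept genes, and log2 ratios were taken from group means plus 10 CPM. A gene was called at 2-fold against each adult title set if its mean over the 3 groups reached 10 CPM. Shares carry exact Clopper-Pearson intervals and read sums exact Poisson intervals, both at 95% and for counting error only, since reads without molecular identifiers are not independent molecules. Counts were thinned to 50000 reads per cell without replacement for detection and for Spearman correlations. Labels name no animals, so each group was 1 sample, with no count model and no p-value. The 8 genes and all gene lists were chosen with earlier results of these data known. Genes named were the 8, partner genes past 2-fold against both adult sets whose mean in the higher group reached 50 CPM (in both sets where adult was higher), and the 5 genes closest to Reln by rho; Rapgef1, under that mean, and the other partner genes given with values were chosen after their values were seen. Ratios and correlations were tested on simulated data. Alternatives covered the pseudocount, stricter retention, scaling (TMM from edgeR 4.0.16), summed reads and thinning. Analyses used Python with numpy and scipy.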

Additional observations from a re-analysis of the deposited data

Results flagged for a closer look

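Reads of the 4 genes that were higher in pregnancy also appeared in cells that no comparison used. The 4 pregnancy cells under the read minimum, numbers 3, 12, 68 and 73, held 93648 assigned reads in all, so these values rest on few reads. In them, Reln came to 780 CPM over the summed reads (exact Poisson interval 611 to 980), against 108 CPM (89.6 to 128) in the 98 adult cells left out. Vldlr came to 203 CPM (122 to 317) against 44.4 CPM (33.1 to 58.2). Spock3 came to 374 CPM (260 to 520) against 7.68 CPM (3.51 to 14.6). Ncam1 came to 74.7 CPM (30.1 to 154), against 217 CPM (176 to 264) in marked and 20.9 CPM (11.7 to 34.4) in unmarked adult cells left out, and the 98 marked reads lay in 2 cells. Reln, Vldlr and Spock3 were read in each of the 4 cells and Ncam1 in 3 of them.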

How the results depend on the processing

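A log2 ratio was taken as moved where it changed by over 1.5-fold, a correlation by over 0.2, a share where it left its 95% interval, and a count where it changed by over 1.5 times. Under the alternatives 75 log2 ratios stayed within that limit and 13 did not, and none with a main value past 2-fold changed sign. With a pseudocount of 100 CPM the log2 ratios against all adult cells were 2.63 for Reln, 1.26 for Vldlr, 1.31 for Ncam1, 1.38 for Spock3 and -0.40 for Spock2. With a pseudocount of 1 CPM they were 4.18 for Ncam1, 5.29 for Spock3, 1.80 for Spock1 and -2.30 for Spock2, and 5 members, with Spock1 added, were then past 2-fold. With means of log2 values they were 2.86 for Spock3 and -0.067 for Spock2, and the median of all genes moved to 0.20. Without the highest pregnancy cell Lrp8 had -0.20, and without the highest cell of both groups Spock2 had -0.41. Reln, Vldlr, Ncam1 and Spock3 were past 2-fold against each adult set under all 9 alternatives to scaling, retention and averaging, and all 4 also passed a log2 threshold of 2. That threshold left 1.57% of all genes higher and 0.571% lower, and dropping the filter on low values left 3.64% and 1.75%. CPM over all reads shifted the median of all genes to -0.15 and lowered the share of higher genes among those called from 62.8% to 53.9%; with means of log2 values it was 94.5%. Genes called higher numbered 991 with a pseudocount of 1 CPM and 67 with 100 CPM against 736, and genes called lower 805 and 40 against 436. Detection depended on depth by construction. Reln was found in 41.0% of adult and 100.0% of pregnancy cells at 1 read without thinning, in 23.0% and 90.1% after thinning to 20000 reads, and in 9.35% and 84.5% at 100 CPM. The rho of Reln with Vldlr ranged from 0.20 to 0.36 over 5 alternatives, with Ncam1 from -0.10 to -0.03 and with Spock3 from -0.01 to 0.02. The restriction to cells with basal markers and under 3 markers of every other cell type was added after seeing the data. So were the ratios of thinned counts and the ratios without the highest cell of both groups. No paired analysis was possible because the results come from no test and cell numbers name cells only. With no animals named, the spread between mice is unknown, and a gene with no read in a cell of 50000 reads may still be expressed there.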

Other observations

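The pregnancy cells with reads of Dab1 and those with reads of Spock1, the rarest of the 8 genes, were largely the same. This pattern was picked after the values were seen. Each gene was read in 7 of 71 pregnancy cells, and 5 of these cells, numbers 37, 42, 44, 45 and 46, carried both. Together these 5 cells held 9 of the 11 Dab1 reads but only 16 of the 67 Spock1 reads. Cell 20, with no Dab1 read, held 50 of the Spock1 reads. Cells 42, 45 and 46 were the pregnancy cells with any of 8 neuronal markers at 100 CPM (1, 3 and 1 markers) and each had 2 Schwann cell markers, and cell 44 had 3 fibroblast markers, while all 5 had at least 7 core basal genes. The part of these markers in the pattern was not tested. Their Vldlr levels ran from 65.0 to 946 CPM. No adult cell carried both genes. The 5 cells have close numbers in their titles, and what the numbers stand for on the chip is not given in the sources used here. Among the pregnancy cells under the read minimum, cell 3 held 8 Dab1 reads and no Spock1 read, among 19427 assigned reads.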
